A study of Mus musculus with 23 samples.

Results

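A group of 45 genes of the endoplasmic reticulum (ER) folding and vesicle transport machinery was followed in F9 cells given all-trans retinoic acid (RA), out of 36814 genes counted in each mRNA library. They were chosen by gene symbol for 7 steps of the secretory route: translocation into the ER (7 genes), folding (13), degradation of misfolded proteins (2), stress sensors and their transcription factors (5), the COPII coat (8), cargo receptors (5), and the COPI coat with retrieval receptors (5). All 45 symbols matched 1 Ensembl gene each. Of these, 44 passed the filter on low counts. Mia3 (ENSMUSG00000056050), an organizer of exit sites for bulky cargo, was listed at 0 counts in all 14 mRNA libraries and was not tested. Reads given to no gene are left out of these counts, so 0 counts do not tell whether Mia3 was expressed.

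F9 is an embryonal carcinoma line of the mouse, and RA drives it to differentiate into extraembryonic endoderm. RA was given at 1e-07 M, and the vehicle, dimethyl sulfoxide (DMSO), at 0.001%. The 14 mRNA libraries comprised 4 taken at 0 h, a pair at every RA time (6, 12, 24 and 48 h), and a single DMSO library at 24 h and at 48 h. The 8 ChIP samples and 1 total chromatin sample of the series were not used here. No genotype or other agent is named in the labels, and they do not say whether libraries of a group came from separate cultures, so p-values reflect how these libraries vary among themselves, and that variation may be technical.

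Proteins bound for secretion or for membranes enter the ER through the Sec61 channel, fold with the help of chaperones and disulfide isomerases, and leave in vesicles coated with COPII. COPI vesicles bring escaped ER proteins and receptors back from the Golgi. When folding falls behind, sensors in the ER membrane switch on transcription factors, among them XBP1 and ATF6, which raise chaperone, degradation and transport genes. Cells of the parietal endoderm secrete large amounts of basement membrane proteins and depend on this route.

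The libraries held 7.08 to 10.9 M counts on genes (M, mega). They fell into 2 sets, which no label names, by their share of reads outside annotated features, which was 57.3 to 59.4% in set 1 and 52.5 to 53.8% in set 2. Set 1 holds replicate 1 of 0 h and of each RA time and both DMSO libraries, and set 2 holds the rest. Between the sets 42.1% of all 16155 genes tested and 23 of the 44 members differed, so the log2 changes and calls below come from 1 edgeR quasi-likelihood fit with a term for the set, unless another setting is named. A gene is called higher or lower at a Benjamini-Hochberg adjusted p under 0.05 over all genes tested. Changes are log2 differences with their standard error (SE), and levels are TMM-scaled CPM (counts relative to the library's total), not corrected for gene length, so they are compared within a gene only.

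Matches to known stress elements are printed here for the members that carry them, so that their values can be read beside the sequence. The ER stress response element (ERSE) was searched as CCAAT and CCACG with 9 bases of any kind between them, the shorter ERSE-II as ATTGG and CCACG with 1 base between them, and the unfolded protein response element (UPRE) as TGACGTGG. All 3 were searched on both strands from 250 bases before to 50 bases after the gene start in RefSeq, build GRCm38.p6. All 3 motifs hold CCACG on 1 strand, and no match printed here overlaps another. A window was at hand for 37 members; Sec61a1, Ssr2, Hyou1, Atf6, Creb3l1, Lman1, Tmed2 and Kdelr2 had none. ERSE was found in 6 of the 37 windows (16.2%), all 6 among the 12 folding genes with a window, against 0.137% of 27025 gene windows and 3.41% of the windows of 88 other genes of the route. At least 1 of the 3 motifs was in 32.4% of the members' windows, 10.2% of those 88 and 0.884% of all. Stretches around each match follow, 5′ to 3′ on the gene's strand, with the fixed letters of the motif in capitals:
Hspa5, chr2:34772013-34772055, plus strand: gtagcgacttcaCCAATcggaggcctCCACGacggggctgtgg
Calr, chr8:84847063-84847105, minus strand: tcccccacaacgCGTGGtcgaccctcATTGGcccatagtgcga
Canx, chr11:50325788-50325830, minus strand: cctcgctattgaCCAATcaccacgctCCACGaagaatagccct
Pdia6, chr12:17266479-17266521, plus strand: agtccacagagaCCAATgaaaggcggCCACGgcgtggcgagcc
Dnajc3, chr14:118937815-118937857, plus strand: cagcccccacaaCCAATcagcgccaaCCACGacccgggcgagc
Hsp90b1, chr10:86705521-86705668, minus strand: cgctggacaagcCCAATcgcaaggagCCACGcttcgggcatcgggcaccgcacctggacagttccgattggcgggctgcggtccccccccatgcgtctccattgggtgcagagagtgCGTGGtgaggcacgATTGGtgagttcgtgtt

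The match of Hspa5 spans bases -65 to -47 from the gene start, and Hsp90b1 holds 2 matches, at -212 to -194 and, in the reverse sense, at -107 to -89. ERSE-II was found in 2 of the 37 windows (5.41%, against 0.0444% of all windows), in Herpud1 and Dnajb11. UPRE was found in 4 (10.8%, against 0.714% of all windows and 6.82% of the other genes of the route): Sec23a and Sec24d of the COPII coat, and Copb1 and Kdelr3 of the COPI and retrieval step. The matches of Dnajb11 and Sec23a lie just after the gene start and are not printed. UPRE was thus in 2 of 8 COPII, 2 of 4 COPI and retrieval and 0 of 3 cargo receptor windows, and in 0 of 12 folding windows:
Herpud1 (ERSE-II), chr8:94386365-94386399, plus strand: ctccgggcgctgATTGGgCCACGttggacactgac
Sec24d (UPRE), chr3:123267458-123267489, plus strand: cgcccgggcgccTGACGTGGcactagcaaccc
Copb1 (UPRE), chr7:114254689-114254720, minus strand: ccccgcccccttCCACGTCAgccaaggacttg
Kdelr3 (UPRE), chr15:79516366-79516397, plus strand: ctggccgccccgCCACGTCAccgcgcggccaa

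A match describes letters in the window and is not evidence of binding. Of the 24 members with a window that were called higher after 48 h of RA, 10 held at least 1 of the motifs (41.7%). Of the 12 tested members with a window that were not, 2 did (16.7%), Canx and Copb1. Members were listed for their known roles in this route, so these shares are a description of that list and were not tested.

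More members were called higher at each later time in RA, as were more of all genes, with Hspa5, Calr and Xbp1 called from 6 h and the cargo receptors at 48 h only. After 6 h, 3 of 44 members were called higher and 0 lower; of all genes tested 4.10% were called higher and 1.51% lower (5.61% in all). After 12 h, 6 members were higher and 1 lower, beside 7.38% and 5.31% of all genes (12.7% in all). After 24 h, 18 members were higher and 1 lower, beside 15.5% and 13.5% (29.0% in all). After 48 h, 28 members were higher and 3 lower, beside 25.8% and 22.9% (48.8% in all). At 6 h the members thus lay near the background, and from 24 h on their higher calls were a larger share than those of all genes and their lower calls a smaller one. The median log2 change of the 44 members was 0.08 at both 6 and 12 h, 0.33 at 24 h and 0.52 at 48 h, beside medians of all genes tested between -0.01 and 0.02. The 4 comparisons share the 0 h libraries, so their counts do not stand apart from each other. Every called member had the same sign within both sets. Read as levels, without the model, both RA libraries lay above all 4 at 0 h in 7 members at 6 h, 9 at 12 h, 16 at 24 h and 28 at 48 h (10.3%, 13.5%, 19.0% and 27.4% of all genes). They lay below in 1, 1, 1 and 3 members (8.23%, 12.2%, 14.8% and 22.7% of all genes). Dnajb9, Hsp90b1 and Kdelr2 were among those called at 24 h with the set term whose libraries overlapped those of 0 h.

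The members are listed here by the time of their first call against 0 h. Between 6 and 12 h of RA 0 members were called, so these times are not told apart. Hspa5, Calr and Xbp1 were called higher from 6 h, and Hsp90b1, Dnajc3 and Sec23a from 12 h. Another 12 followed at 24 h: the isomerases Pdia4 and Pdia6, the co-chaperones Dnajb9 and Sdf2l1, the degradation genes Herpud1 and Edem1, the transcription factor Creb3l2, and the transport genes Sec24d, Copa, Kdelr1, Kdelr2 and Kdelr3. A further 10 were first called higher at 48 h: Ssr3, Pdia3, P4hb, Dnajb11, Atf6, Creb3, Lman1, Mcfd2, Tmed2 and Tmed10. Ssr2 was called lower from 12 h, and Sec23b and Sec13 at 48 h. The other 13 tested members were called at no time against 0 h. A first call marks when a change passed the threshold with 2 RA libraries, and the times of 2 genes were not tested against each other.

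**Figure D1:**
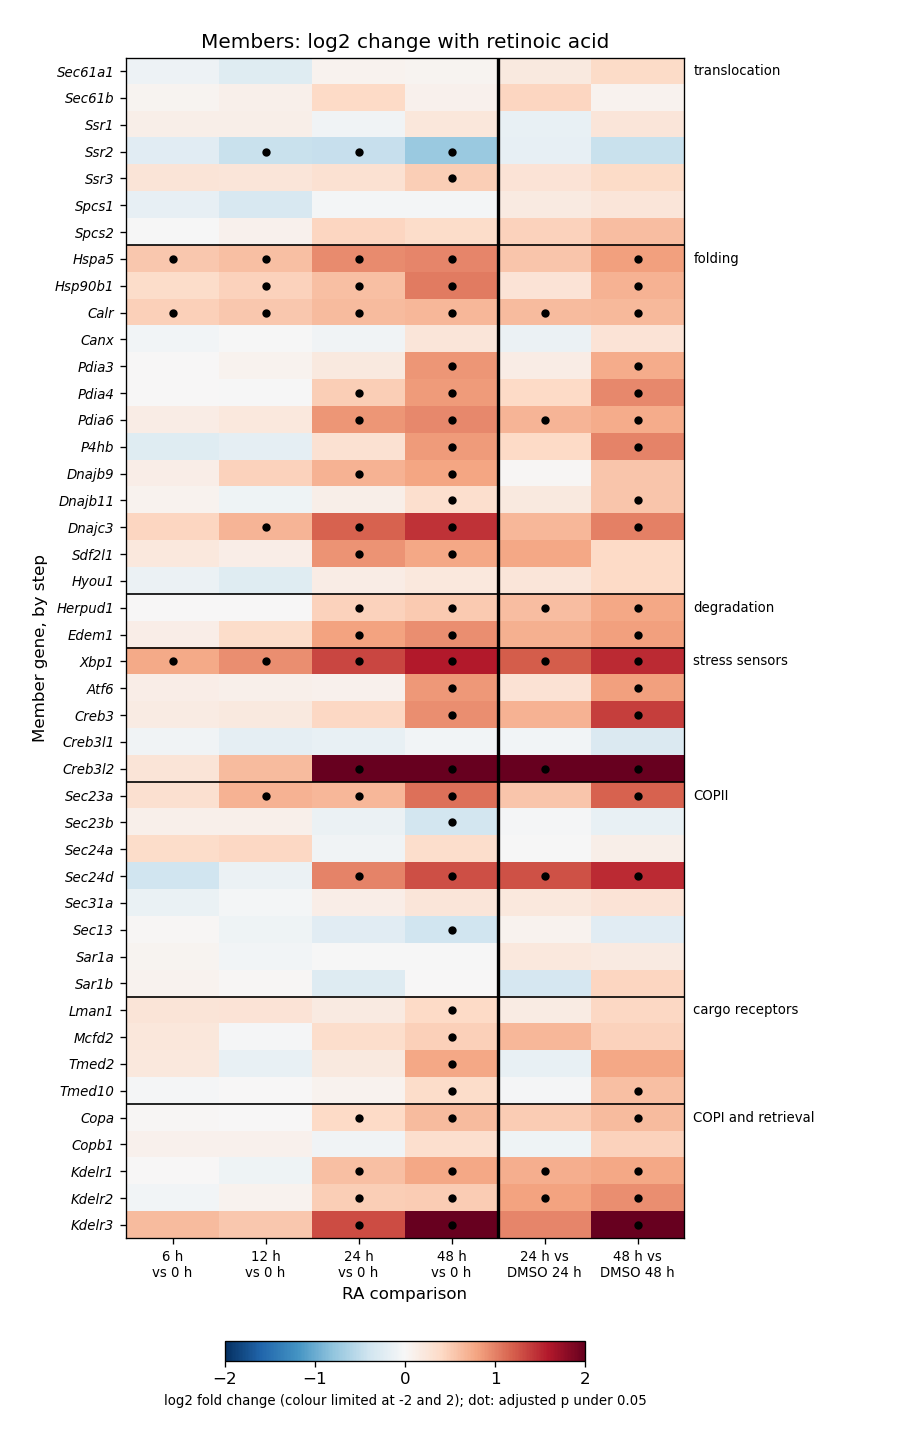
Log2 change of each of the 44 tested members (rows, grouped by step) in 6 RA comparisons (columns), with colour from blue (lower) to red (higher) limited at -2 and 2, and a dot where the adjusted p was under 0.05. Dots are 3 at 6 h, 7 at 12 h, 19 at 24 h and 31 at 48 h against 0 h, and 8 and 22 against DMSO at 24 and 48 h.

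**Figure D2:**
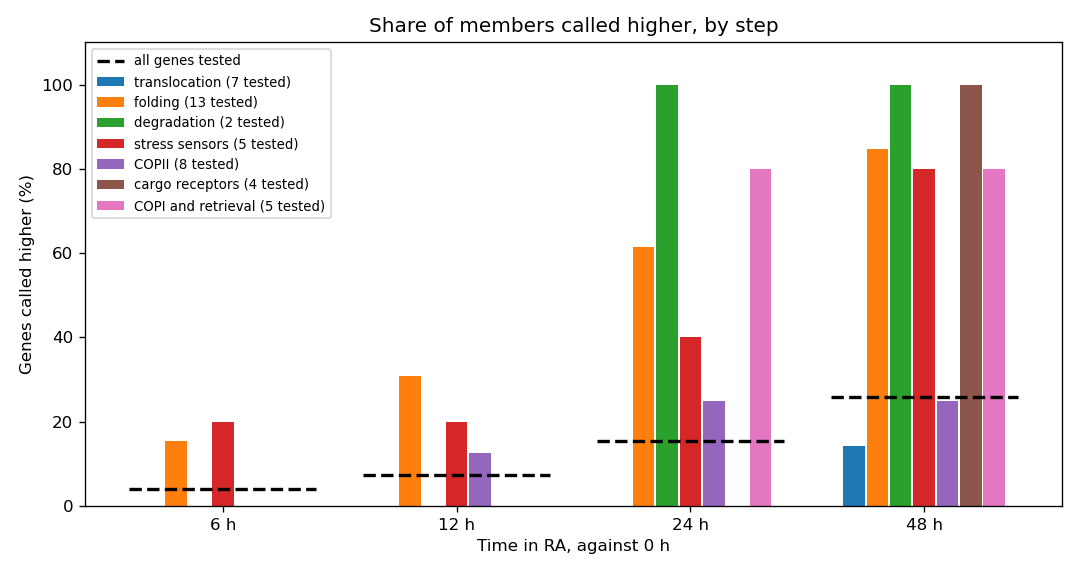
Percent of tested members called higher against 0 h (y axis) at each time in RA (x axis), with 1 bar per step and a dashed line for all genes tested. At 48 h the bars of folding, degradation, stress sensors, cargo receptors and COPI stand far above the line at 25.8%, COPII lies near it, and translocation lies below it.

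Of the stress sensors and their transcription factors, Xbp1, Creb3l2, Atf6 and Creb3 were higher after 48 h of RA, and Creb3l1 was not called at any time. XBP1 (Xbp1, ENSMUSG00000020484) is made active by splicing of its mRNA by the sensor IRE1 and drives chaperone and degradation genes; gene counts do not tell the spliced form from the unspliced one. Xbp1 stood at 46.6, 49.4, 47.5 and 51.5 CPM at 0 h, at 79.4 and 80.3 after 6 h of RA, 89.8 and 90.5 after 12 h, 107 and 135 after 24 h, and 127 and 158 after 48 h. The DMSO libraries, at 49.4 CPM after 24 h and 48.0 after 48 h, lay within the 0 h range, and every RA library lay above it. The log2 change against 0 h was 0.75 ± 0.12 (SE) at 6 h (adjusted p = 0.00155), 0.93 ± 0.12 at 12 h (0.000174), 1.34 ± 0.12 at 24 h (2.64e-06) and 1.58 ± 0.12 at 48 h (2.24e-07). Without replicate 1 of 6 h the call at 6 h was lost (0.68, adjusted p = 0.0522).

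Creb3l2 (ENSMUSG00000038648), a membrane-bound transcription factor of the ATF6 type that is cut free in the Golgi and is known to raise COPII genes in secreting cells, had the largest log2 change of the 44 members at 48 h. Its levels at 0 h were 9.17, 6.15, 3.48 and 5.55 CPM, after 6 h 8.10 and 7.23, after 12 h 11.6 and 8.60, after 24 h 34.5 and 27.3, and after 48 h 80.1 and 63.8. DMSO gave 8.35 and 11.4 CPM. The RA libraries overlapped the 0 h libraries at 6 h and 12 h and lay clear of them at 24 and 48 h. The log2 change was 2.26 ± 0.21 at 24 h (adjusted p = 4.38e-06) and 3.48 ± 0.21 at 48 h (3.37e-08). Creb3l2 also rose between neighbouring times, by 1.62 ± 0.25 from 12 to 24 h (adjusted p = 0.00444) and by 1.22 ± 0.23 from 24 to 48 h (0.00452). The first of those calls was lost without replicate 1 or 2 of 12 h (adjusted p = 0.111 and 0.0779).

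Atf6 encodes a stress sensor that itself becomes a transcription factor once cut in the Golgi. It lay between 40.2 and 54.8 CPM at 0 h, between 44.8 and 56.0 in the 6 RA libraries from 6 to 24 h, and at 83.6 and 88.6 after 48 h. Its rise came between 24 and 48 h, by 0.77 ± 0.16 (adjusted p = 0.00824), and that call was lost without replicate 1 of 24 h (0.64, adjusted p = 0.0894) or of 48 h (0.70, 0.0801). Against 0 h the change at 48 h was 0.86 ± 0.14 (0.000194). Creb3, a relative of Creb3l2, rose by 0.93 ± 0.15 at 48 h (0.000157). In Creb3l1, a further relative known from collagen-secreting cells, the sets parted widely. Set 1 gave 36.8 CPM at 0 h and 44.5 to 49.6 in RA, with 44.3 and 55.6 in DMSO. Set 2 gave 18.5 to 27.6 CPM at 0 h and 16.6 to 18.9 in RA. Its change at 48 h was -0.06 ± 0.21, with a 95% interval from -0.50 to 0.39.

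**Figure D3:**
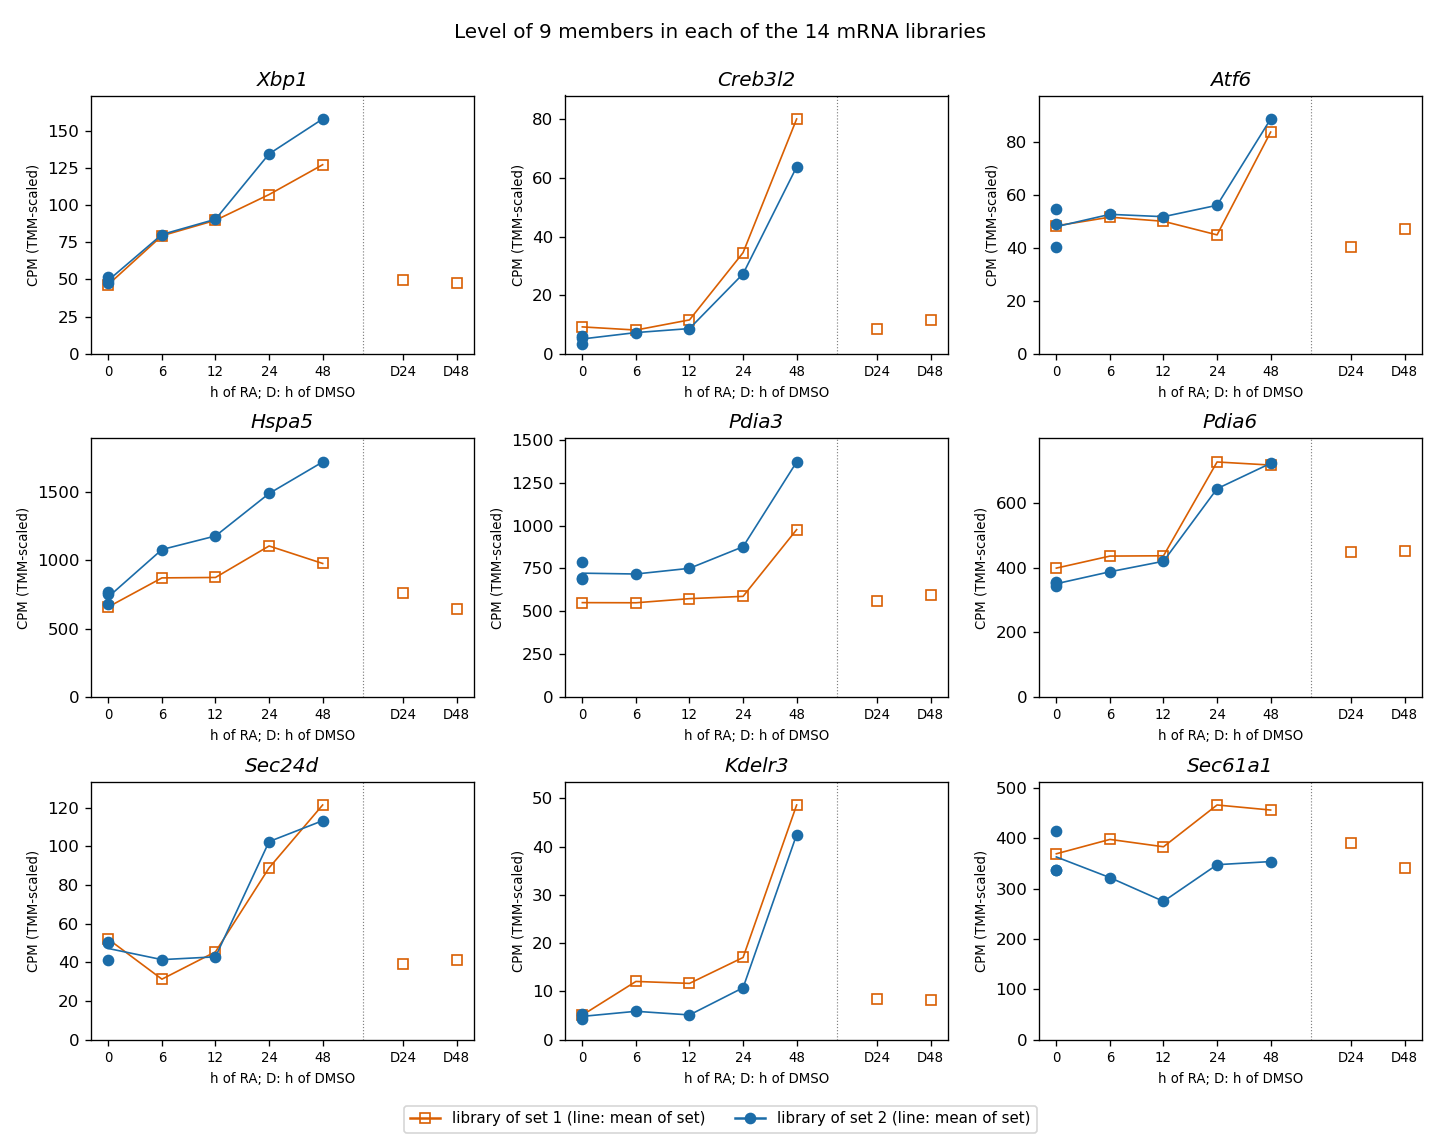
CPM (y axis, from 0) of 9 members in each of the 14 mRNA libraries over hours of RA, with the DMSO libraries to the right of the dotted line; open squares are set 1, filled circles set 2, and lines join the means of each set. Xbp1 and Hspa5 lie above their 0 h libraries in all 8 RA libraries, Creb3l2 and Sec24d in the 4 at 24 and 48 h, Atf6 and Pdia3 in both at 48 h, and Sec61a1 overlaps its 0 h libraries at every time.

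Folding genes rose as a broad group: 2 of 13 members were called higher at 6 h, 4 at 12 h, 8 at 24 h and 11 at 48 h. None was lower at any time. Of all genes tested 4.10%, 7.38%, 15.5% and 25.8% were called higher at these times. Hspa5 (ENSMUSG00000026864) encodes BiP, the main Hsp70 chaperone of the ER, and its ERSE is the first of the sequences above. It stood at 659, 750.1, 679.8 and 767 CPM at 0 h, 872 and 1079 after 6 h, 875 and 1179 after 12 h, 1106 and 1490 after 24 h, and 977 and 1721 after 48 h. All 8 RA libraries were above all 4 at 0 h, and DMSO gave 759.9 and 646. Within each pair of RA libraries the set 2 library was the higher. The log2 change was 0.54 ± 0.13 at 6 h (adjusted p = 0.0251), 0.94 ± 0.13 at 24 h (0.000128) and 0.97 ± 0.13 at 48 h (3.63e-05). Calr, the lectin chaperone calreticulin, went from 848, 915, 982 and 1039 CPM at 0 h to 1143 and 1386 at 6 h and 1274 and 1601 at 48 h. Its changes were 0.48 ± 0.10 at 6 h (0.00978) and 0.66 ± 0.10 at 48 h (0.000105). The calls at 6 h rest on both RA libraries: without replicate 1 or 2 of 6 h the adjusted p was 0.275 and 0.227 for Hspa5 and 0.116 and 0.281 for Calr.

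Dnajc3, a co-chaperone of BiP (also known as P58IPK), had the largest change of the folding members. It stood at 89.5, 73.8, 47.5 and 49.0 CPM at 0 h, 105 and 79.7 after 6 h, 125 and 94.4 after 12 h, 149.9 and 154 after 24 h, and 192 and 177 after 48 h, with 109 and 103 in DMSO. The DMSO libraries lay above all 0 h libraries and below the RA libraries at 24 and 48 h. The change was 0.68 ± 0.18 at 12 h (adjusted p = 0.0282), 1.18 ± 0.18 at 24 h (0.000335) and 1.45 ± 0.18 at 48 h (2.38e-05). Hsp90b1, which encodes the ER Hsp90 chaperone GRP94, gave 626, 928, 796 and 899.6 CPM at 0 h and 1209 and 1816 after 48 h. The lowest 0 h value was the set 1 library, and at 24 h the set 1 library (779 CPM) still lay within the 0 h range while the set 2 library (1502) lay above it. With the set term the change was 0.59 ± 0.12 at 24 h (adjusted p = 0.00196; 0.39 and 0.0606 without replicate 2 of 24 h) and 1.04 ± 0.12 at 48 h (8.94e-06). The calls of Hspa5, Hsp90b1 and Dnajc3 at 12 h were each lost without either 12 h library, at adjusted p from 0.073 to 0.222.

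The disulfide isomerases, which form and reshuffle the disulfide bonds of secreted proteins, were first called at different times. Pdia6, whose promoter holds an ERSE, changed by 0.89 ± 0.10 at 24 h (adjusted p = 2.25e-05) and 0.97 ± 0.10 at 48 h (3.97e-06). Pdia4 changed by 0.49 ± 0.10 at 24 h (0.00232) and 0.85 ± 0.10 at 48 h (1.12e-05). Pdia3, the partner of the lectin chaperones, and P4hb, which also serves as a subunit of collagen prolyl hydroxylase, were first called at 48 h, by 0.89 ± 0.10 (1.29e-05) and 0.85 ± 0.16 (0.000743). With the replicate number as a block, P4hb was called at 24 h as well (0.56, adjusted p = 0.00592). That fit left out replicates 3 and 4 of 0 h, at 992 and 908 CPM, beside 588 and 698 in replicates 1 and 2. Within the sets, the log2 difference of P4hb at 24 h was 0.75 in set 1 and 0.09 in set 2. Tests between neighbouring times gave the same order of calls for Pdia6 and Pdia3. Pdia6 rose by 0.68 ± 0.12 from 12 to 24 h (adjusted p = 0.007) and Pdia3 by 0.69 ± 0.12 from 24 to 48 h (0.00336). That Pdia6 call from 12 to 24 h was lost without replicate 1 of 12 h (0.169), replicate 2 of 12 h (0.0864) or replicate 1 of 24 h (0.0658).

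Of the remaining co-chaperones, Dnajb9, a co-chaperone that lowers IRE1 activity, changed by 0.69 at 24 h and 0.79 at 48 h, and Sdf2l1, a partner of Dnajb11, by 0.89 and 0.77. Dnajb11 changed by 0.33 ± 0.11 at 48 h (adjusted p = 0.0282; 0.245 without replicate 2 of 48 h). Without that library Sdf2l1 at 48 h had an adjusted p of 0.0732, and at 24 h Dnajb9 had 0.0774 without replicate 2 and Sdf2l1 0.0512 without replicate 1. Canx, the membrane-bound lectin chaperone calnexin, and Hyou1, a nucleotide exchange factor of BiP, were not called. Canx changed by 0.24 ± 0.11 at 48 h (95% interval 0.01 to 0.47, adjusted p = 0.0766) and Hyou1 by 0.21 ± 0.12 (interval -0.04 to 0.47). Canx thus carries the same fixed ERSE letters as Calr, and its interval at 48 h ends below the 0.66 of Calr; the difference between the genes was not tested.

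Both degradation genes rose at 24 and 48 h, beside 15.5% and 25.8% of all genes called higher. Herpud1, which helps assemble the membrane complex that draws misfolded proteins out of the ER, stood at 104, 130.0, 127 and 143 CPM at 0 h, 168 and 167 at 24 h, and 164 and 189 at 48 h. Edem1, a lectin that passes misfolded glycoproteins on to that complex, stood at 44.8, 53.7, 45.7 and 50.4 CPM at 0 h, 66.8 and 97.6 at 24 h, and 78.1 and 101 at 48 h. In both genes every library at 24 and 48 h lay above every library at 0 h. The change at 48 h was 0.53 ± 0.12 for Herpud1 (adjusted p = 0.00195) and 0.93 ± 0.14 for Edem1 (0.000103). Herpud1 at 24 h changed by 0.46 ± 0.12 (0.00979; 0.0826 without replicate 1 of 24 h).

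The entry step showed no common direction. At 48 h 25.8% of all genes were called higher and 22.9% lower. Of 7 translocation members, 1, Ssr3, was called higher at 48 h (0.50 ± 0.11, adjusted p = 0.00252; 0.05, not under the threshold, without replicate 2 of 48 h) and 1, Ssr2, lower. Both encode subunits of the translocon-associated protein (TRAP) complex that sits beside the channel. Ssr2 stood at 424, 403, 427 and 449 CPM at 0 h, 363 and 292 after 12 h, 369 and 284 after 24 h, and 300.3 and 236 after 48 h, with 392 and 391 in DMSO. All libraries from 12 h on lay below all at 0 h, and so did both DMSO libraries. The change was -0.45 ± 0.12 at 12 h (adjusted p = 0.026) and -0.74 ± 0.12 at 48 h (0.000212). Without replicate 1 or 2 of 12 h the first of these had an adjusted p of 0.135 and 0.308, and the call at 24 h was lost without replicate 2 of 24 h (0.138).

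Sec61a1, the pore-forming subunit of the channel, lay at 369.5, 338, 414 and 337 CPM at 0 h and 456 and 354 at 48 h. Its change at 48 h was 0.06 ± 0.13, with a 95% interval from -0.22 to 0.34, while BiP transcripts changed by 0.97. The other 4 were not called at any time in the fit with the set term. At 48 h they were Sec61b at 0.09, Ssr1 at 0.23, and the signal peptidase subunits Spcs1 at -0.04 and Spcs2 at 0.36 (adjusted p = 0.0779). With the replicate number as a block, Spcs2 was called higher at 24 h (0.58, adjusted p = 0.0197) and 48 h (0.54, 0.0154). That fit left out replicates 3 and 4 of 0 h. These were the highest 0 h libraries of Spcs2, at 93.4 and 108 CPM, beside 66.5 and 76.5 in replicates 1 and 2. Sec61b has near-identical copies elsewhere in the genome, and reads with several alignments were not counted, so its level of 25.5 to 63.7 CPM is uncertain.

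COPII coat genes split by paralog. Of 8 members, Sec23a and Sec24d were called higher at 48 h, Sec23b and Sec13 lower, and Sec24a, Sec31a, Sar1a and Sar1b were not called. The higher share, 2 of 8, was near the 25.8% of all genes. SEC23 and SEC24 form the inner coat, and SEC24 picks the cargo; SEC13 and SEC31 form the outer cage; SAR1 is the GTPase that starts assembly. Sec24d (ENSMUSG00000039234) stood at 52.0, 49.9, 41.1 and 50.6 CPM at 0 h, 31.4 and 41.5 after 6 h, 45.5 and 42.9 after 12 h, 88.9 and 103 after 24 h, and 121 and 113 after 48 h. DMSO gave 39.1 and 41.1 CPM. The rise fell between 12 and 24 h, by 1.11 ± 0.17 (adjusted p = 0.00446), and that call was lost without replicate 1 or 2 of 12 h (0.0933 and 0.0864). Against 0 h the change was 0.99 ± 0.14 at 24 h (0.000202) and 1.29 ± 0.14 at 48 h (8.43e-06). Its partner in the list, Sec24a, lay at 45.9 to 68.6 CPM at 0 h and at 53.6 and 72.9 at 48 h. Sec24a changed by 0.35 ± 0.21 (95% interval -0.09 to 0.80).

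Sec23a stood at 87.8, 88.2, 68.0 and 81.6 CPM at 0 h, 87.3 and 111 after 6 h, 115 and 143 after 12 h, 98.8 and 154 after 24 h, and 174 and 165 after 48 h. Every library from 12 h on lay above all at 0 h, and DMSO gave 80.2 and 70.8. The change was 0.70 ± 0.16 at 12 h (adjusted p = 0.0128), 0.66 ± 0.16 at 24 h (0.00806) and 1.11 ± 0.16 at 48 h (9.11e-05). The call at 12 h rests on both RA libraries: it was lost without replicate 1 or 2 of 12 h (log2 change 0.78 and 0.61). The call at 24 h was lost without replicate 2 of 24 h, where the log2 change went from 0.66 to 0.35. Sec23b ran the other way, from 128, 149, 158 and 137 CPM at 0 h to 102 and 108 at 48 h, a change of -0.37 ± 0.12 (0.0222). Sec13 changed by -0.39 ± 0.13 (0.0214). Without replicate 2 of 48 h neither was called (Sec23b -0.17, adjusted p = 0.471; Sec13 -0.20, 0.44). In DMSO Sec23b stood at 116 and 106 CPM, also below the 0 h range. Sar1a changed by -0.01 ± 0.11 and Sar1b by 0.01 ± 0.13, with 95% intervals from -0.24 to 0.22 and from -0.28 to 0.29.

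The ratio of 2 paralogs within a library does not depend on how libraries are scaled. Sec23a counts stood at 0.431 to 0.685 of Sec23b counts in the 4 libraries at 0 h, and at 0.905 to 1.70 in the 4 at 24 and 48 h of RA. With 24 and 48 h pooled, the log2 ratio was 1.15 higher late in RA (exact two-sided permutation test over 70 splits, p = 0.0286, the smallest this design can give, adjusted over 4 ratios p = 0.0381). Sec24d over Sec24a went from 0.728 to 1.13 up to 1.44 to 3.22, also 1.15 higher (exact p = 0.0286, adjusted 0.0381). At 6 h of RA that ratio stood at 0.575 and 0.569, below all 4 libraries at 0 h, a difference chosen for print after it was seen and not tested. DMSO gave 0.692 and 0.668 for the first ratio, just above and within the 0 h range, and 1.02 and 0.871 for the second, within it. Sar1b over Sar1a differed by -0.12 (exact p = 0.257, adjusted 0.257). The sets are unequally spread over these groups: within set 1 and set 2 the differences were 0.86 and 1.26 for Sec23a over Sec23b, 1.25 and 0.84 for Sec24d over Sec24a, and 1.76 and 1.69 for Kdelr3 over Kdelr2. With exchange only within sets (30 splits, added after seeing the data), each of these 3 had an exact p of 0.0333, the smallest possible there, and an adjusted p of 0.0444. For Sar1b over Sar1a it was 0.533 (adjusted 0.533). Reads were not corrected for gene length, so only the change of a ratio is read. Without replicate 3 of 0 h the first ratio had an unadjusted exact p of 0.0571 (1.02 on the log2 scale). The second had the same unadjusted p without replicate 2 of 0 h (1.05). The p-values with 1 library left out were not adjusted over the 4 ratios. Whether the ratios pass after adjustment without any other library was therefore not tested.

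**Figure D4:**
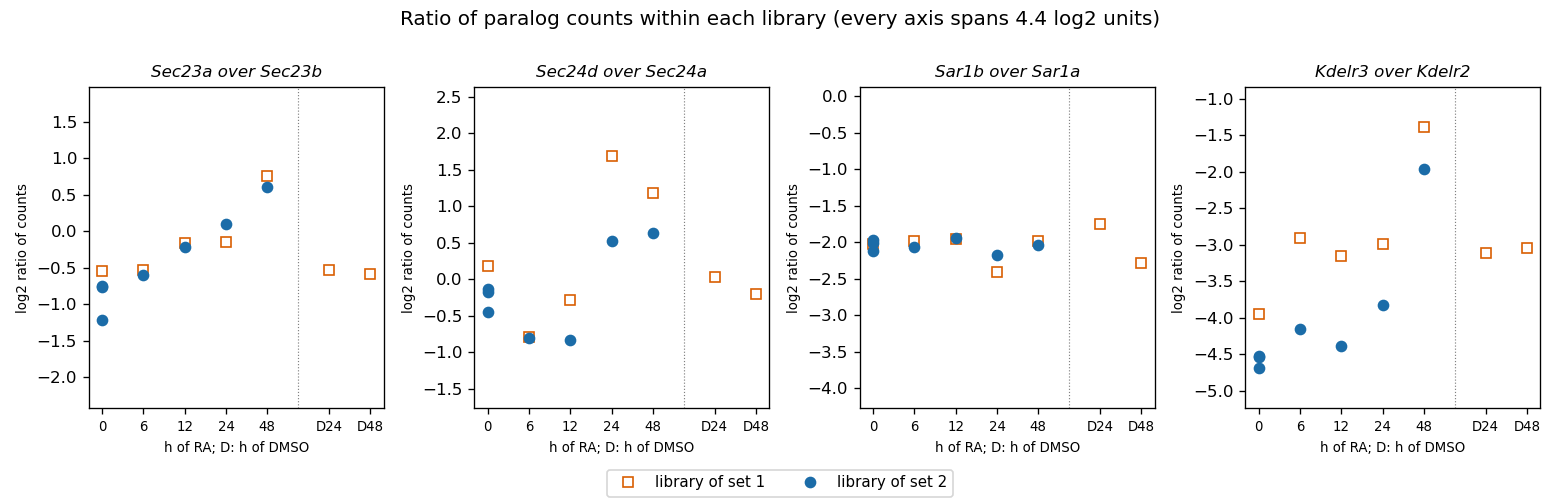
Log2 ratio of the counts of 4 pairs of paralogs (y axis, each spanning the same number of log2 units) in every library over hours of RA, with DMSO to the right of the dotted line; open squares are set 1 and filled circles set 2. The ratios of Sec23a over Sec23b and of Sec24d over Sec24a lie higher at 24 and 48 h of RA than at 0 h. Kdelr3 over Kdelr2 lies highest at 48 h. Sar1b over Sar1a lies among its 0 h values at 6 and 48 h of RA, just above them at 12 h and below them at 24 h.

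None of the 4 cargo receptors tested was called by 24 h, and all 4 were called higher at 48 h, beside 25.8% of all genes. LMAN1 and MCFD2 form a receptor that carries glycoproteins such as clotting factors out of the ER, and the TMED proteins are p24 receptors of COPII and COPI vesicles. Lman1 stood at 147, 128, 119 and 126 CPM at 0 h and 171 and 176 at 48 h, a change of 0.39 ± 0.11 (adjusted p = 0.0088). Mcfd2 stood at 62.2, 59.4, 44.9 and 46.5 CPM at 0 h and 69.7 and 78.8 at 48 h, a change of 0.48 ± 0.15 (0.0168). Both genes lay above the 0 h range in both 48 h libraries, and also at 6 h (164 and 153 CPM for Lman1, 63.1 and 62.5 for Mcfd2), where neither was called. Lman1 at 12 h (173 and 147.5 CPM, beside at most 146.6 at 0 h) and Mcfd2 at 24 h (66.9 and 69.1) lay above it too, without a call. Tmed10 changed by 0.36 ± 0.12 (0.0199). Tmed2 stood at 6.77, 7.27, 6.96 and 8.95 CPM at 0 h and 9.85 and 13.4 at 48 h, a change of 0.77 ± 0.24 (0.016). Tmed2 has near-identical copies, and with reads of several alignments left out its level is uncertain. None of the 4 calls held when replicate 2 of 48 h was left out: the adjusted p was 0.095 for Lman1, 0.16 for Mcfd2, 0.0528 for Tmed2 and 0.104 for Tmed10.

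In the COPI and retrieval step, 4 of 5 members rose at 24 and 48 h, beside 15.5% and 25.8% of all genes called higher. Copb1, a coat subunit, was not called (0.33 ± 0.13 at 48 h, 95% interval 0.05 to 0.62, adjusted p = 0.0523). Copa, the largest subunit of the COPI coat, stood at 298, 324, 284 and 322 CPM at 0 h and 528 and 442 at 48 h, a change of 0.64 ± 0.11 (0.000409). The KDEL receptors bind the tail signal of BiP and other ER residents and return them from the Golgi. Kdelr1 stood at 75.3, 82.7, 88.5 and 85.1 CPM at 0 h and 133 and 148 at 48 h (0.78 ± 0.13, adjusted p = 0.000331). Kdelr2 stood at 79.8, 100.4, 140.4 and 113 CPM at 0 h and 127 and 166 at 48 h, so its groups overlapped. With the set term it changed by 0.51 ± 0.15 (0.011; 0.0698 and 0.0894 without replicate 1 or 2 of 48 h). At 24 h Copa, Kdelr1 and Kdelr2 changed by 0.39 ± 0.11, 0.59 ± 0.14 and 0.50 ± 0.15, and without replicate 1 of 24 h none of the 3 was called (adjusted p = 0.122, 0.0961 and 0.121).

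Kdelr3 (ENSMUSG00000010830), the least counted of the KDEL receptor genes and one with a UPRE in its promoter window, rose most. It stood at 5.11, 4.29, 5.38 and 4.87 CPM at 0 h, 12.1 and 5.90 after 6 h, 11.7 and 5.14 after 12 h, 17.0 and 10.8 after 24 h, and 48.6 and 42.5 after 48 h. DMSO gave 8.49 and 8.29 CPM, above all 0 h libraries and below the RA libraries from 24 h on. The change was 1.30 ± 0.25 at 24 h (adjusted p = 0.00166) and 3.06 ± 0.24 at 48 h (3.01e-07). Most of it fell between 24 and 48 h, by 1.76 ± 0.27 (0.0014). At 6 and 12 h the set 1 libraries were about as high as at 24 h in set 2, while the set 2 libraries lay near the 0 h level; the set term is 1 value for all groups and does not take up such a difference. Kdelr3 counts were 0.0387 to 0.0649 of Kdelr2 counts at 0 h and 0.0710 to 0.383 late in RA. The log2 ratio was 1.88 higher (exact p = 0.0286, adjusted 0.0381). With any 1 of the 4 libraries at 0 h left out, its unadjusted exact p was 0.0571 (1.80 to 2.04 on the log2 scale). The DMSO ratios, 0.115 and 0.121, lay above the lowest late RA value.

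Against DMSO of the same time, a comparison of 2 RA libraries with 1, 8 of 44 members were called higher at 24 h and 22 at 48 h, with 0 lower (of all genes 5.83% and 12.6% were called higher and 4.61% and 11.5% lower, 10.4% and 24.1% in all). At 24 h they were Calr, Pdia6, Herpud1, Xbp1, Creb3l2, Sec24d, Kdelr1 and Kdelr2. At 48 h all 22 were also called against 0 h. The largest differences at 48 h were in Creb3l2 (2.87 ± 0.34, adjusted p = 7.91e-05), Kdelr3 (2.76 ± 0.39, 0.00027), Sec24d (1.50 ± 0.23, 0.000478), Xbp1 (1.49 ± 0.19, 0.000115) and Creb3 (1.39 ± 0.23, 0.000814). Hspa5 differed by 0.82 ± 0.20 (0.0092) and Calr by 0.64 ± 0.15 (0.00752). The 9 members called against 0 h but not against DMSO were Ssr2, Ssr3, Dnajb9, Sdf2l1, Sec23b, Sec13, Lman1, Mcfd2 and Tmed2. Sec23b differed from DMSO by -0.15 (95% interval -0.51 to 0.22) and Sec13 by -0.23 (-0.61 to 0.16). Both DMSO libraries belong to set 1, and without the set term 2 members remained called at 24 h and 8 at 48 h. Without replicate 1 of 24 h, Calr (adjusted p = 0.0585), Pdia6 (0.06), Herpud1 (0.197), Kdelr1 (0.295) and Kdelr2 (0.165) lost the call at 24 h. Without replicate 1 of 48 h, 13 members were called at 48 h.

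DMSO against 0 h, with the mean of both DMSO libraries, called 0 members and 0% of all genes by edgeR; at an unadjusted p under 0.05 there were 4 members and 1263 genes. DESeq2 called 0 members and 6 genes. Between 6 and 12 h of RA 0 members were called, also 0 at an unadjusted p under 0.05, beside 0.0186% of all genes (3 genes by edgeR, 33 by DESeq2, which also called 0 members). From 12 to 24 h, 5 members rose and 0 fell (3.53% and 2.73% of all genes, 6.26% in all): Pdia4, Pdia6, Creb3l2, Sec24d and Kdelr1. From 24 to 48 h, 4 rose and 0 fell (6.40% and 4.62% of all genes, 11.0% in all): Pdia3, Atf6, Creb3l2 and Kdelr3. Without replicate 1 or without replicate 2 of 12 h, 0 of the 5 were called from 12 to 24 h.

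Outside the 45 members, 107 further genes of the route, all tested, were read in 9 lists. After 48 h, 44 were called higher and 6 lower, with a median change of 0.24, below the 0.52 of the members. Counts were 0 and 0 at 6 h, 6 and 1 at 12 h, and 31 and 1 at 24 h. Beside these stand 25.8% of all genes higher and 22.9% lower at 48 h, 7.38% and 5.31% at 12 h, and 15.5% and 13.5% at 24 h. At 6 h the shares of all genes were 4.10% and 1.51%. Of the folding list 12 of 14 were higher at 48 h. Pdia5, an isomerase, rose by 2.26 ± 0.15 at 48 h (adjusted p = 9.98e-08), Txndc5 by 1.38, and Ero1lb, an oxidase that recharges the isomerases, by 1.15. N-glycosylation, the addition of sugar chains during entry, had 7 of 15 higher and 0 lower, led by Magt1 (1.36), Alg5 (1.13) and Dpagt1 (0.58). Degradation had 5 of 12 higher, with Erlec1 at 1.38, Os9 at 0.91 and Sel1l at 0.88.

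In the list of further stress sensor genes, 3 of 13 were higher, a share near the 25.8% of all genes: Atf3 (0.80 ± 0.17, adjusted p = 0.00132), Ern1, which encodes the sensor IRE1 (0.68 ± 0.20, 0.0123), and Eif2ak3, which encodes the sensor PERK (0.62 ± 0.18, 0.0111). Atf6b was lower (-0.41 ± 0.15, 0.033). The other 9 were not called. Among them were genes of the PERK and ATF4 arm, to which Atf3 is also assigned: Atf4 at -0.26, Ddit3, which encodes CHOP, at 0.35, Trib3 at -0.15, Chac1 at -0.35 and Asns at 0.04. These 5 were chosen for print after their values were seen. Translocation had 5 of 17 higher and 3 lower, also near the shares of all genes: Sec63 (1.14) and Sec62 (0.92), which help BiP pull chains in, rose, and Sec61g (-0.74), Srp19 (-0.72) and Srp9 (-0.49) fell.

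Further along, 1 of 7 other COPII genes was higher (Sec31b, 1.51 ± 0.58, adjusted p = 0.043), and 4 of 9 cargo receptor genes, led by Tmed3 (1.79), Surf4 (0.83) and Tmed4 (0.47), with Ctage5 lower (-0.36). In the COPI list 4 of 12 were higher and 1, Arf1, lower (-0.31). Against 25.8% of all genes, neither this count nor the 1 of 7 of COPII is read as a result about its list. Copz2 (3.63 ± 0.45), Arfgap3 (2.28 ± 0.22), which turns off the ARF1 GTPase, and Copg2 (1.91 ± 0.11, 2.89e-08) led it. Copg2, a coat subunit with a paralog in Copg1, stood at 73.7, 96.7, 98.9 and 105 CPM at 0 h and 251 and 408 at 48 h, and DMSO gave 84.6 and 79.7. Golgi tethers and SNAREs had 3 of 8 higher: Golga2 (0.68), Stx5a (0.66) and Bet1 (0.64).

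The cell state changed in the same libraries. Beside the calls below, 25.8% of all genes tested were called higher and 22.9% lower at 48 h, and 4.10% higher at 6 h. At 48 h all 6 secreted basement membrane genes of the list (Col4a1, Col4a2, Lama1, Lamb1, Lamc1, Sparc) were higher; their summed level went from 899 to 1403 CPM at 0 h up to 6013 to 9104, with 1317 and 1298 in DMSO. At 24 h it was 1712 to 2698 CPM, and at 6 h 931 to 1447, where Sparc and Lamc1 make up most of the sum. At 6 h Col4a1 stood at 148 and 82.2 CPM (37.8 to 84.2 at 0 h) and Col4a2 at 101 and 40.2 (17.7 to 54.6); neither was called. The 6 primitive endoderm markers were all higher at 48 h (57.2 to 113 CPM at 0 h, 130 to 159 at 6 h with 2 of 6 called higher, 1171 to 1301 at 48 h), and the 6 pluripotency markers all lower (3809 to 4966, then 885 to 1663). Of visceral endoderm markers 4 of 4 tested were higher (1.12 to 7.10 CPM, then 102 to 105). Cubn gave 94.4 and 68.7 CPM of that at 48 h, and Ttr 2.98 and 28.3. At 48 h Apob and Amn stood between 1.03 and 4.51 CPM, and Afp and Apoa1, not tested, between 0 and 1.00 CPM. Of fibroblast markers 3 of 3 tested were higher (sum 0.559 to 3.02 CPM, then 60.4 to 108), but Pdgfra, which primitive endoderm also expresses, gave 104 and 54.8 CPM of that at 48 h, and Col1a1, Dcn, Col1a2, Col3a1 and Lum stood between 0 and 2.87 CPM. Of 5 neural markers 0 were higher and 1 was lower, the latter near the share of all genes. The part of any of these cells in the members' changes was not tested, and in bulk RNA more cells of a type and more RNA per cell cannot be told apart. The 6 heat shock genes of the cytosol had 0 higher and 4 lower at 48 h (1371 to 1561 CPM, then 895 to 940).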

How the data were processed

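RNA of 14 F9 libraries was made with TRIzol and TruSeq kits, per the labels' protocols. TopHat2 2.0.7, HTSeq and DESeq with build mm9 are named for mRNA, per the submitters' processing notes; strand settings are not given in the sources used here. The values deposited by the authors are unnormalized counts of reads per Ensembl gene in 1 table for each library. Each table listed 36814 genes, of which 31841 have a symbol. It also has 5 lines for unassigned reads, left out here, with 72.5 to 76.8% of its total. Reads with several alignments were on those lines, so genes with near-identical copies are undercounted, and without strand reads of overlapping antisense genes cannot be told apart.

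Counts were fitted with edgeR 4.0.16 (R 4.3.3, limma 3.58.1): TMM factors (0.929 to 1.10), the default filter on low counts by group, robust quasi-likelihood F-tests, 1 term per group and 1 for the library set, over all 14 libraries. SE is the size of the log2 change over the square root of F, and p-values are two-sided and adjusted over 16155 genes. The single DMSO libraries were assumed to vary like the other groups. Sets were split at the largest gap between libraries in the share of reads outside features. Paralog ratios used counts plus 0.5 and exact permutation tests, with no set term and, added after seeing the data, within sets. The fit was tested on simulated data for RA at 48 h against 0 h. Over 15170 genes it recovered 75% of 100 genes changed 2-fold and 99% of 100 changed 4-fold, and called 9 unchanged genes. The changed genes lay above a floor on level, and all other genes and groups were left unchanged. Counts were drawn with the fit's own spread and 1 constant set shift per gene. In the real data 48.8% of genes were called at 48 h, so these figures may not carry over to the real calls.

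Replicates differed beyond sampling noise (chi-squared per degree of freedom 9.56 to 60.2). Deviations of replicate 1 from 2 correlated between groups across genes (r 0.660 to 0.792 over 10 pairs of groups), and in each of those groups replicate 1 lay in set 1 and replicate 2 in set 2, so pairing and set cannot be told apart.

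Members and lists were chosen with earlier results of these data known. Every library's value was planned for members fixed by name. It was also planned for the 2 tested members of each step with the largest absolute change at 48 h. Not all are printed: Ssr3, Sar1a and Sar1b have log2 changes only, Atf6, Creb3l1 and Sec24a mostly ranges, and others values at some times. Of the other genes of the route, up to 3 called per list with the largest change are named. Further ones were chosen after their values were seen. Alternatives were RLE normalization, DESeq2 1.42.0, 2 other filters, no set term, the replicate number as a block, set 2 alone, a fit of the compared groups only, and leaving out each library in turn. The replicate block was fitted without DMSO and without replicates 3 and 4 of 0 h. The chromatin regions, as start and end positions, were not used here. Plots were drawn with matplotlib 3.10.9.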

Additional observations from a re-analysis of the deposited data

Results flagged for a closer look

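Among the groups of 4 libraries, the 0 h level of Dnajb11 held 1 library far from the other 3. Replicate 1 stood at 147 CPM, and the others at 108 to 114. The gap was 0.846 of the whole range, past Dixon's 95% critical value for 4 values. Replicate 1 is the only 0 h library of set 1, and between the sets Dnajb11 differed by -0.23 (set 2 minus set 1, adjusted p = 0.0294 by edgeR). Chance marks about 1 in 20 such groups, and 44 members were examined.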

How the results depend on the processing

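Of 3224 values of single genes under the alternatives, 0 reversed a call, 132 lost it and 16 gained it. Another 113 changed sign with a call in neither fit. The values belong to 156 results, called or not, of the members whose library values were planned. They cover RA against 0 h and against DMSO, and not the steps between RA times. At 48 h against 0 h, 31 members were called, 24 without the set term and 21 to 34 with 1 library left out, and 21 stayed called without any 1 library. Without the set term the members called were 1 of 3 at 6 h, 1 of 7 at 12 h, 12 of 19 at 24 h, 0 of 5 from 12 to 24 h, 0 of 4 from 24 to 48 h, and 2 of 8 and 8 of 22 against DMSO at 24 and 48 h. With the replicate block they were 3 at 12 h, 10 from 12 to 24 h and 8 from 24 to 48 h. In set 2 alone they were 0 at 6 h, 3 at 12 h, 12 at 24 h, 0 from 12 to 24 h and 1 from 24 to 48 h. With only the groups compared, 3 were called from 6 to 12 h, beside 1844 of 13911 genes, where 0 were called under the other settings. With 1 library left out the counts ran from 0 to 3 at 6 h, 1 to 8 at 12 h, 14 to 20 at 24 h, 0 to 9 from 12 to 24 h, 3 to 9 from 24 to 48 h, and 4 to 11 and 13 to 26 against DMSO; the paralog ratios ran from 1.01 to 1.31 (Sec23), 0.93 to 1.31 (Sec24) and 1.50 to 2.31 (Kdelr). The losses with set 2 alone or a library left out come with fewer samples; other causes were not tested. No setting moved the median of all genes by more than 0.0607. The replicate block could not include DMSO and also left out replicates 3 and 4 of 0 h. In the libraries it kept, it is the same split as the set. Its counts thus differ from the main fit through the libraries left out, not through another block. A fit of only the 3 libraries of 1 RA and DMSO comparison, with the set term, has no residual degrees of freedom. Depth of 7.08 to 10.9 M counts limits what can be said of Tmed2, Kdelr3 and Creb3l2 at 0 h, each under 10 CPM there.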
